A study of Arabidopsis thaliana with 20 samples.

Results

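accD and clpP are plastid genes whose products serve the plastid itself rather than photosynthesis. accD encodes the beta subunit of the carboxyltransferase of plastid acetyl-CoA carboxylase, the enzyme that makes malonyl-CoA for fatty acid synthesis. clpP encodes a proteolytic subunit of the Clp protease of the stroma. Both genes were taken by name, each over its annotated length and with the 300 bp before its start, and they are 2 of the 112 plastid genes tested. The gene table gives no strand, so the starts were placed from general knowledge of the Arabidopsis plastid map, at the low coordinate of accD and at the high coordinate of clpP.

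Plastid genes of flowering plants are transcribed by a bacterial-type polymerase with plastid-encoded core subunits and by a phage-type polymerase encoded in the nucleus. The promoter of accD is known as a target of the nuclear-encoded polymerase, while clpP and rpoB can likewise be read by it, and most photosynthesis genes depend on the plastid-encoded polymerase. pTAC3 is a nuclear-encoded protein that associates with the plastid-encoded polymerase and is needed for its activity.

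Plastid DNA of Arabidopsis thaliana was profiled by IPOD (in vivo protein occupancy display), in which protein is fixed to DNA with formaldehyde, and DNA that stays with protein is sequenced beside the unfractionated DNA (input). The leaf group held 4 IPOD and 4 input libraries from chloroplasts of wild-type Col0 plants aged 14 days and grown on soil, and fixation followed isolation of the chloroplasts. The seedling groups were aged 4 days, were grown on plates and were fixed before isolation, with 3 IPOD and 3 input libraries of ptac3 and the same numbers of Col0, the wild-type accession. In all groups fixation was in 4% formaldehyde for 4 hours. The ptac3 libraries carry the name ptac3 in 1 label field and "wild type" in the genotype field, and the mutant allele is not given in the sources used here. The third Col0 IPOD library is called Col0 in its title and ptac3 in another field, so Col0 results are also given without it. Leaf and seedling libraries differed in age, tissue, growth and order of fixation together, and were not tested against each other. The labels do not say whether replicates came from separate plants, so the p-values measure only the spread between these libraries.

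The mean depth per library lay between 54.5 and 3383 reads per base, and accD, clpP and their flanks were covered at 27.8 to 4142 reads per base. Depth was divided by each library's mean over the plastid genome, so that 1 is the mean of the library, and ratios are log2 of IPOD over input from this relative depth. Seedling libraries of the same group were alike across the genome in 50 bp bins, with Pearson r between 0.930 and 0.979. Leaf libraries fell into 2 sets. Leaf input libraries 1 and 3 had r = 0.944 and leaf input libraries 2 and 4 had r = 0.776, against −0.19 to 0.33 between the sets. Leaf IPOD libraries showed the same division, with r = 0.949 for libraries 1 and 3, r = 0.557 for libraries 2 and 4 and 0.27 to 0.45 between the sets. The labels name no batch, so leaf results are also given within each set. The sets were read from the likeness of these same libraries. Spread within libraries 1 and 3 is therefore small, and an adjusted p from them alone is no support for a call.

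In leaf chloroplasts both genes lay below their input in all 4 same-numbered pairs, and neither was called, with or without the pair number as a block. The main test leaves out the pairing, so its SE holds spread that the 2 fractions of a pair share. The pair ratios themselves had an SD of 0.096 for accD and 0.074 for clpP. accD had a relative depth of 0.844, 0.556, 0.879 and 0.859 in leaf IPOD libraries 1 to 4, against 1.05, 0.695, 1.06 and 0.924 in leaf input libraries. The IPOD value was lower in each pair, although the ranges of the groups overlapped, and library 2 was low in both fractions. The log2 ratios of accD were −0.29, −0.30, −0.26 and −0.095 in pairs 1 to 4, with a mean of −0.24 (limma, SE 0.20, adjusted p = 0.591). clpP had a relative depth of 0.924, 0.749, 0.929 and 0.910 in leaf IPOD libraries, against 1.06, 0.910, 1.03 and 0.976 in leaf input libraries. Its log2 ratios were −0.19, −0.27, −0.15 and −0.092, with a mean of −0.18 (limma, SE 0.14, adjusted p = 0.581).

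Neither gene was called in the leaf at an adjusted p under 0.05, where limma called 0% of the 112 genes, and 8 genes higher and 2 lower passed an unadjusted p under 0.05. With the pair number as a block limma called 17% of the genes, and accD (adjusted p = 0.0641) and clpP (adjusted p = 0.0956) were not among them. All pairs lay below 0 for 25.9% of the genes. Centring the libraries on their median raised every leaf log2 ratio by 0.11, which left accD at −0.13 and clpP at −0.064. Within leaf libraries 1 and 3 alone the ratios were −0.28 for accD (limma, adjusted p = 0.00475) and −0.17 for clpP (adjusted p = 0.0174), where limma called 75% of all genes. Within leaf libraries 2 and 4 alone they were −0.20 and −0.18, both with an adjusted p of 0.998, and 0% of the genes were called.

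**Figure D1:**
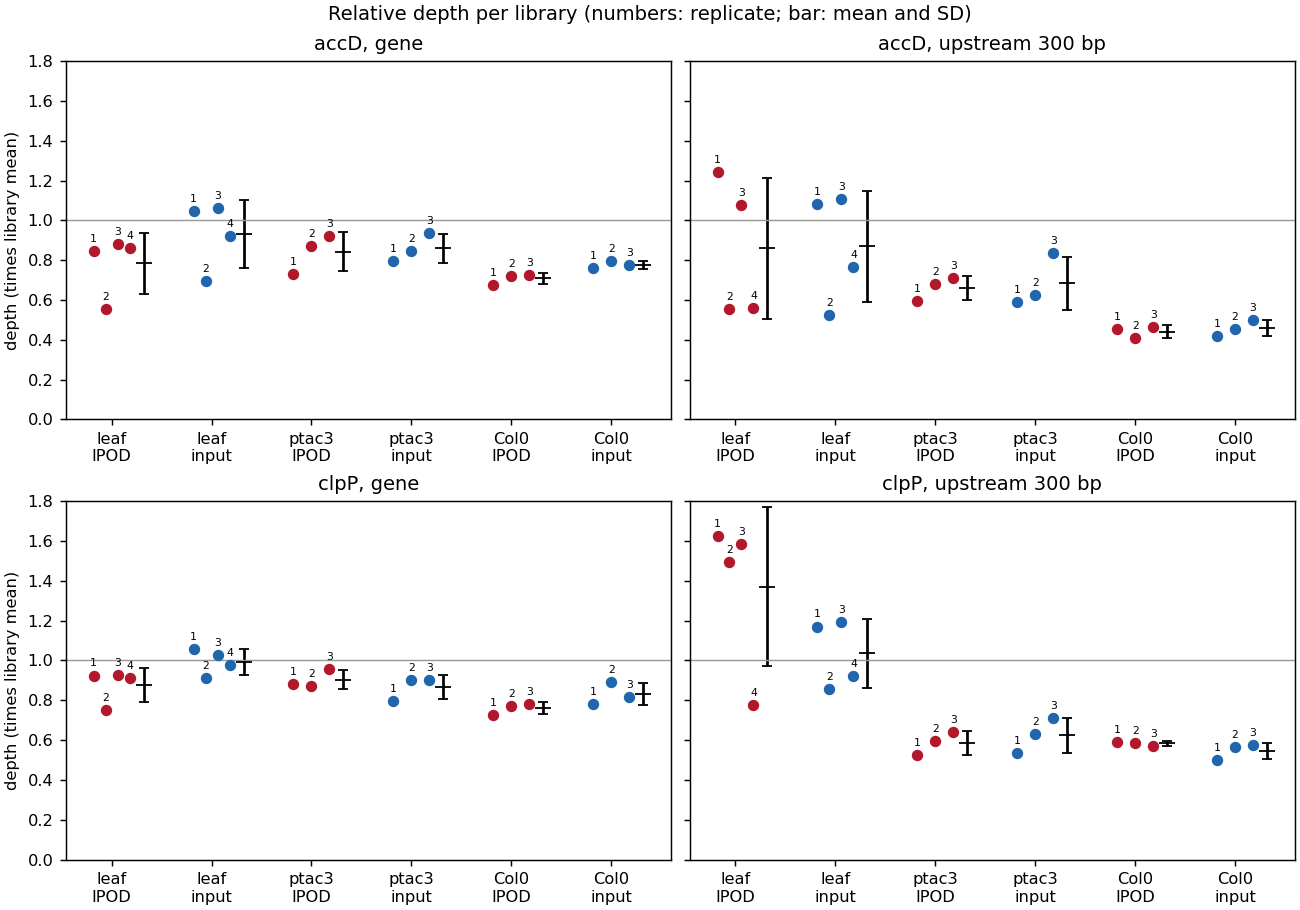
Relative depth (times the library mean, y axis) of accD and clpP and of the 300 bp upstream of each, with 1 numbered point per library and the mean and SD beside each group. Leaf IPOD library 4 stands at 0.775 over the clpP upstream window, while the other leaf IPOD libraries stand between 1.49 and 1.63, and leaf input libraries between 0.857 and 1.19.

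The 300 bp before clpP had the largest mean leaf ratio of the regions at either gene, and it rested on 3 of the 4 pairs. Relative depth was 1.63, 1.49, 1.59 and 0.775 in leaf IPOD libraries 1 to 4, against 1.17, 0.857, 1.19 and 0.922 in leaf input libraries. IPOD libraries 1 to 3 lay above all input libraries, while IPOD library 4 lay below all of them. The log2 ratios were 0.43, 0.74, 0.37 and −0.22, with a mean of 0.33 (limma, SE 0.24, adjusted p = 0.543). It was 0.40 within leaf libraries 1 and 3 alone (limma, adjusted p = 0.000749, where 75.2% of all flanks were called) and 0.26 within libraries 2 and 4 alone (adjusted p = 0.996). Of the 222 flanks of 300 bp tested on either side of all genes, 172 had a lower leaf ratio. limma called 0% of these flanks in the leaf, and 20 flanks higher and 3 lower passed an unadjusted p under 0.05. No annotated gene overlaps this window, and the next gene beyond it is psbB, which encodes a chlorophyll-binding protein of photosystem II.

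Set against its own gene in the same library, the clpP upstream window had a higher ratio in leaf pairs 1 to 3, by 0.63, 1.01 and 0.52 on the log2 scale. In pair 4 the difference was −0.13. The mean was 0.51 (limma, SE 0.24, adjusted p = 0.876). limma called 0% of the 222 flank-minus-gene differences in the leaf, and before adjustment 8 higher and 3 lower had a p under 0.05. Leaving out leaf IPOD library 4 gave a difference of 0.76 (limma, adjusted p = 0.0178), where 5 of the 222 differences were called. Pair 4 was the only pair below 0, so that p-value is no support for a call. With 1 leaf library left out at a time the difference ran from 0.38 to 0.76, and its adjusted p from 0.0178 to 0.994. Within leaf libraries 1 and 3 alone the clpP window stood 0.57 above the gene (limma, adjusted p = 3.33e-09, where 33.8% of all such differences were called). Those libraries were set apart for their likeness, so that p-value rests on their small spread. Within libraries 2 and 4 alone the clpP window stood 0.44 above the gene (limma, adjusted p = 0.996).

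Before accD the mean leaf ratio was near 0. Its upstream window had a relative depth of 1.24, 0.556, 1.08 and 0.560 in leaf IPOD libraries, against 1.08, 0.524, 1.11 and 0.764 in leaf input libraries. Libraries 1 and 3 were high and libraries 2 and 4 low in both fractions. The log2 ratios were 0.18, 0.060, −0.050 and −0.39, with a mean of −0.051 (limma, SE 0.30, adjusted p = 0.953) that turned to 0.060 when libraries were centred on their median. The accD window stood above its gene by 0.47, 0.36 and 0.21 in pairs 1 to 3 and below it in pair 4, at −0.30 (mean 0.19, limma, adjusted p = 0.968). Within leaf libraries 1 and 3 alone that difference was 0.34 (limma, adjusted p = 0.000732, among the same 33.8%), with the window itself at 0.064. Within libraries 2 and 4 alone it was 0.032 (adjusted p = 0.996), with the window at −0.17.

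In 50 bp bins the leaf profile of accD lay below 0 along its whole length, and that of clpP crossed 0 near its start. All 30 bins inside accD had a mean log2 ratio below 0, with a median of −0.25. The lowest was at 57351 to 57400 of the TAIR10 plastid genome, 300 bp inside the gene, with pair values of −0.46, −0.50, −0.38 and −0.40 and a mean of −0.44 (limma, adjusted p = 0.764). With the pair number as a block this bin alone of the 82 bins over both genes and windows was called (adjusted p = 0.0420), where 6.44% of all 2564 bins were. Without the block no bin of accD or clpP was called, none passed an unadjusted p under 0.05, against 4.21% of all bins, and 0% of all bins were called. Within leaf libraries 1 and 3 alone 42 of the 82 bins were called, where 63.7% of all bins were. Within libraries 2 and 4 alone 0 of them were called, and 0% of all bins.

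In clpP 38 of the 40 gene bins lay below 0, with a median of −0.21, and the lowest was −0.41 at 70901 to 70950, 956 bp into the gene. The bin at its start, 71851 to 71900, had 0.39, 0.39, 0.37 and −0.059 in the 4 pairs. All 6 bins of the clpP upstream window lay above 0, with a median of 0.28. Their highest was the outermost, 72151 to 72200, with pair values of 0.81, 1.47, 0.64 and −0.11 and a mean of 0.70 (limma, SE 0.34, adjusted p = 0.764). Over all 2564 bins the leaf median was −0.13, and 824 bins lay above 0 and 1740 below.

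**Figure D2:**
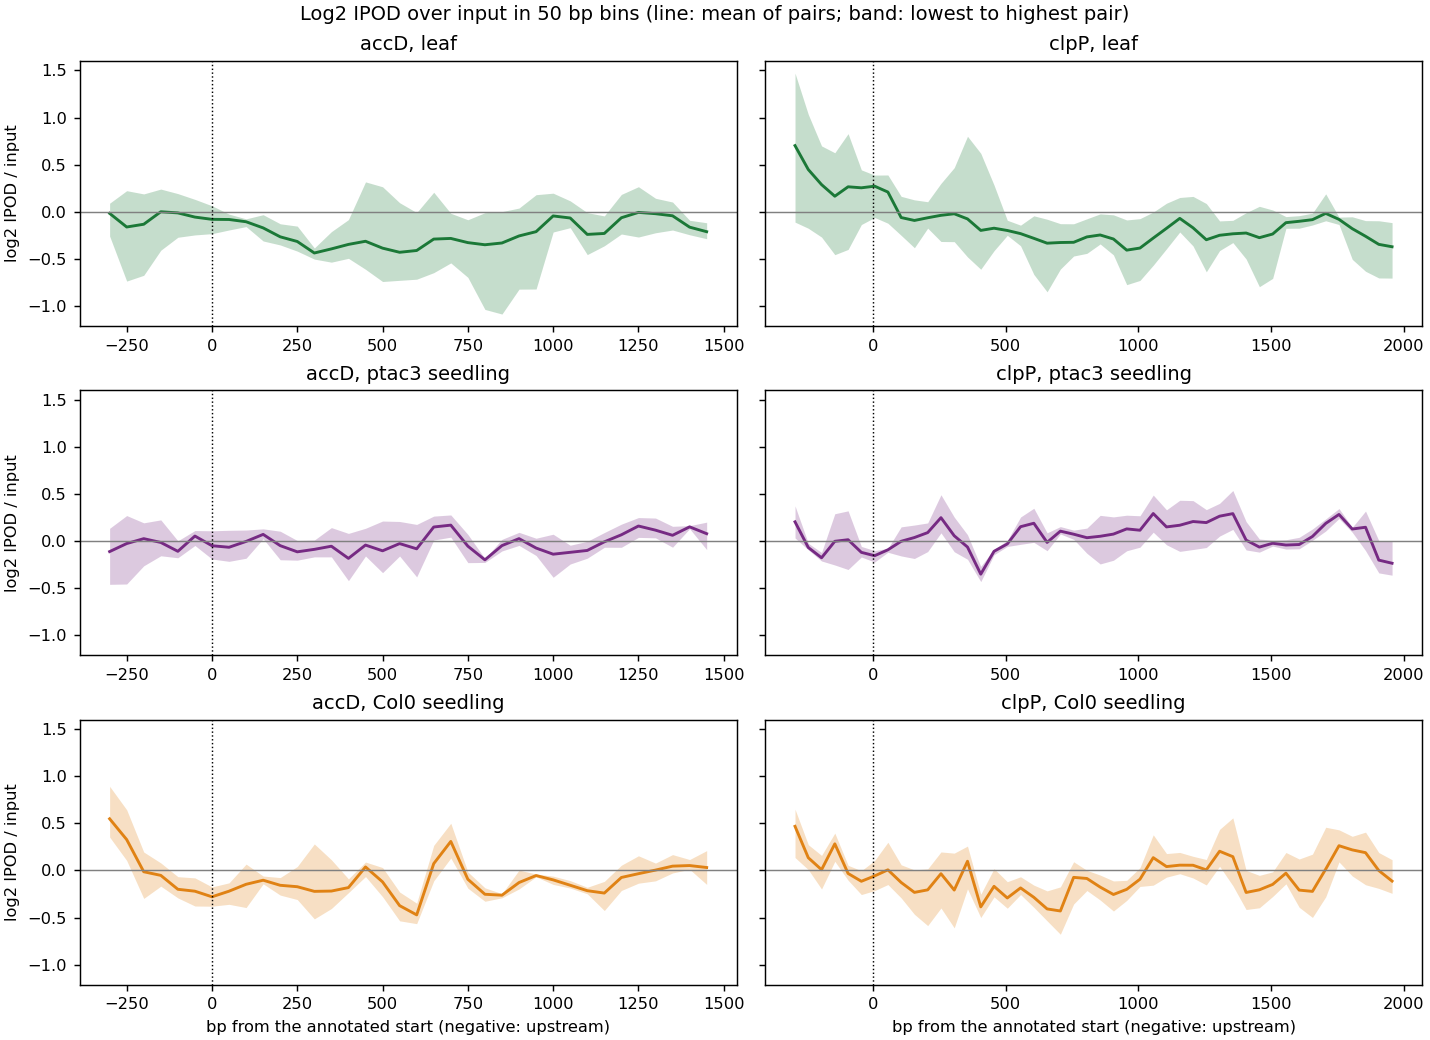
Log2 IPOD over input (y axis) in 50 bp bins against distance from the annotated start (x axis, bp, negative upstream) for accD and clpP, with the mean of the same-numbered pairs as a line and the lowest to the highest pair as a band. The leaf mean lies below 0 in all 30 bins of accD, and reaches 0.70 at the outer end of the clpP window.

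In ptac3 seedlings both genes were close to their input, and no value passed the test. accD had a relative depth of 0.733, 0.873 and 0.923 in ptac3 IPOD libraries 1 to 3, against 0.796, 0.847 and 0.939 in ptac3 input libraries. Its log2 ratios were −0.10, 0.042 and −0.016, with a mean of −0.025 (limma, SE 0.088, adjusted p = 0.977). clpP had 0.880, 0.870 and 0.957 in IPOD, against 0.796, 0.900 and 0.904 in input, and its log2 ratios were 0.14, −0.041 and 0.082 (mean 0.059, limma, SE 0.075, adjusted p = 0.952). limma called 0% of the genes in ptac3, with 4 higher and 1 lower at an unadjusted p under 0.05, and the pair block also called 0%.

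Neither upstream window passed the test in ptac3, where limma called 0% of flanks and none passed an unadjusted p under 0.05. The accD window had log2 ratios of 0.0064, 0.11 and −0.20 (mean −0.028, limma, adjusted p = 0.999). The clpP window lay below its input in all 3 pairs, at −0.016, −0.069 and −0.12 (mean −0.068, limma, adjusted p = 0.999), where 12.2% of flanks did so. Its mean crossed 0 without ptac3 IPOD library 1, at 0.0093, and without ptac3 input library 3, at 0.022. Against their genes the windows had means of −0.0023 for accD and −0.13 for clpP (limma, adjusted p = 0.992 for each), and limma called 0% of these differences in ptac3, with 3 higher and 6 lower at an unadjusted p under 0.05. In bins the lowest ptac3 value of clpP was −0.35 at 71451 to 71500, 406 bp into the gene, with −0.35, −0.43 and −0.27 in the 3 pairs (adjusted p = 0.996). The Col0 pairs had −0.50, −0.25 and −0.41 in that bin. No bin of accD or clpP was called in ptac3, where limma called 0% of all bins. At an unadjusted p under 0.05, 2 of the 82 passed, against 1.68% of all bins.

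In Col0 seedlings both genes had mean ratios below 0, again without passing the test. Same-numbered Col0 libraries deviated together little (r = 0.023 to 0.257), as did those numbered 2 in ptac3 (r = 0.228). A Col0 ratio was therefore read as setting side by side libraries that share only a number. accD had a relative depth of 0.677, 0.722 and 0.725 in Col0 IPOD libraries 1 to 3, against 0.760, 0.795 and 0.773 in Col0 input libraries. The ranges did not overlap, which was so, with IPOD lower, for 24.1% of the genes. The log2 ratios of accD were −0.15, −0.14 and −0.087, with a mean of −0.13 (limma, SE 0.088, adjusted p = 0.370). clpP had 0.725, 0.771 and 0.783 in Col0 IPOD, against 0.783, 0.890 and 0.817 in Col0 input, and the ranges overlapped. Its ratios were −0.11, −0.20 and −0.059 (mean −0.12, limma, SE 0.075, adjusted p = 0.325). Neither was called, where limma called 10.7% of the genes. Without the third Col0 IPOD library the means were −0.14 for accD (adjusted p = 0.380) and −0.14 for clpP (adjusted p = 0.308).

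Both upstream windows of Col0 seedlings lay well below the library mean in IPOD and input alike, and they were below it in ptac3 too. In ptac3 the clpP window averaged 0.587 in IPOD and 0.624 in input, and the accD window 0.660 and 0.684. The clpP window averaged 0.583 ± 0.011 in Col0 IPOD and 0.546 ± 0.040 in Col0 input (SD, n = 3 each). Its Col0 log2 ratios were 0.21, 0.029 and −0.011 (mean 0.075, limma, adjusted p = 0.715, and 0.087 without the third IPOD library). The accD window averaged 0.441 ± 0.031 in Col0 IPOD and 0.458 ± 0.040 in Col0 input (SD, n = 3 each), with ratios of 0.082, −0.16 and −0.092 (mean −0.056, limma, adjusted p = 0.812, and −0.091 without the third IPOD library). Its difference from its gene was 0.071 in Col0 (limma, adjusted p = 0.737). Set against its own gene the clpP window had differences of 0.31, 0.23 and 0.049 in Col0, with a mean of 0.20 (limma, SE 0.091, adjusted p = 0.233, and 0.23 without the third IPOD library). limma called 9.01% of flank-minus-gene differences in Col0.

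In Col0 bins the outer end of each window was its highest part. The outermost clpP bin, 72151 to 72200, had 0.37, 0.034 and 0.21 in the ptac3 pairs, against 0.65, 0.62 and 0.14 in the Col0 pairs (Col0 mean 0.47, limma, adjusted p = 0.115). The outermost accD bin, 56751 to 56800, had 0.14, −0.0099 and −0.46 in the ptac3 pairs, against 0.89, 0.35 and 0.40 in the Col0 pairs (Col0 mean 0.55, limma, adjusted p = 0.175). The lowest Col0 bin of clpP, 71151 to 71200, stood 706 bp into the gene with −0.44, −0.68 and −0.17 (adjusted p = 0.115). The lowest of accD, 57651 to 57700, had −0.50, −0.56 and −0.35 (adjusted p = 0.232), and its highest, 57751 to 57800, lay close by, with 0.29, 0.13 and 0.50. No bin of accD or clpP was called in Col0, where limma called 3.2% of all bins. At an unadjusted p under 0.05, 13 of the 82 passed, against 20.8% of all bins.

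The 300 bp after accD, chosen after its values were seen, were called lower in Col0 IPOD. Relative depth there was 0.836, 0.873 and 0.799 in Col0 IPOD libraries, against 1.07, 1.12 and 1.10 in Col0 input libraries. All IPOD libraries lay below all input libraries, which was so for 24.1% of the genes in Col0. The share of flanks for which this held is not given here. The log2 ratios were −0.34, −0.34 and −0.43, and the fall averaged −0.37 (limma, SE 0.084, adjusted p = 0.0152). Of 222 flanks, 2 had a lower Col0 ratio, and limma called 8.56% of flanks in either direction. Without the third Col0 IPOD library the value was −0.34 (adjusted p = 0.0489). The call was lost over 150 bp (−0.39, adjusted p = 0.0603) and without Col0 IPOD library 1 (adjusted p = 0.0627), Col0 input library 2 (adjusted p = 0.0766) or Col0 input library 3 (adjusted p = 0.0647).

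The same stretch after accD had log2 ratios of −0.21, 0.027 and 0.063 in the ptac3 pairs (mean −0.042, limma, adjusted p = 0.999). In leaf the mean was −0.16 (adjusted p = 0.618). The difference between the genotypes, ptac3 minus Col0, was 0.33 on the log2 scale (from −0.042 in ptac3 and −0.37 in Col0; limma, SE 0.12, adjusted p = 0.295, where 1.35% of flanks were called). After clpP the means were −0.27 in leaf, −0.13 in ptac3 and −0.11 in Col0, with adjusted p-values of 0.543, 0.999 and 0.503.

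**Figure D3:**
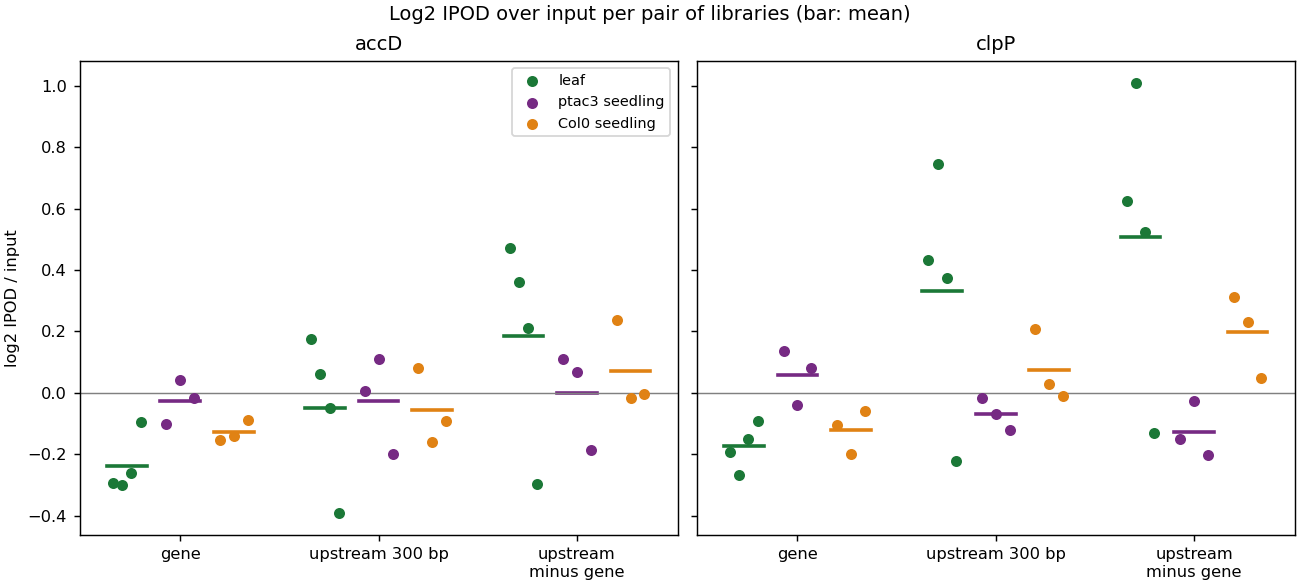
Log2 IPOD over input (y axis) of accD and clpP for the gene, the 300 bp upstream and the upstream window minus the gene, with 1 point per same-numbered pair and a bar at the mean for leaf, ptac3 and Col0. For the clpP window minus its gene, the mean is −0.13 in ptac3 and 0.20 in Col0. Col0 numbers were not read as pairs, so single Col0 points depend on which libraries share a number.

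Between ptac3 and Col0 seedlings the IPOD over input ratio differed at neither gene beyond the spread. clpP was 0.18 higher in ptac3 on the log2 scale (limma, SE 0.11, adjusted p = 0.333). accD was 0.10 higher (limma, SE 0.12, adjusted p = 0.577). No bin of either gene was called in this contrast, where limma called 0% of all bins, and at an unadjusted p under 0.05 there passed 3 of the 82, against 8.35% of all bins. Over all genes the median difference was 0.088, and limma called 2.68% of them. The median was 0.15 over the 79 protein-coding genes, of which 73 were higher in ptac3. Over the 30 transfer RNA genes it was −0.27, with 29 lower. Centred on the library median, the differences were 0.10 for clpP and 0.026 for accD. Without the third Col0 IPOD library they were 0.20 for clpP (adjusted p = 0.322) and 0.12 for accD (adjusted p = 0.540).

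The clpP upstream window differed from its gene in sign. Its ratio was 0.14 lower in ptac3 than in Col0 (limma, SE 0.15, adjusted p = 0.725). The accD window differed by 0.028 (limma, SE 0.17, adjusted p = 0.979), and by −0.047 with libraries centred on their median. Taken against its gene the clpP window was lower by 0.32 in ptac3 (limma, SE 0.13, unadjusted p = 0.0254, adjusted p = 0.289). The same-numbered values stood at −0.15, −0.027 and −0.20 in ptac3, against 0.31, 0.23 and 0.049 in Col0. Col0 numbers were not read as pairs, so nothing was read from the gap between these ranges. limma called 0.901% of these differences. Without the third Col0 IPOD library the value was −0.36 (adjusted p = 0.225). The accD window differed from its gene by −0.074 between the genotypes (limma, SE 0.14, adjusted p = 0.920).

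In the input, the unfractionated DNA, the stretch before accD stood higher in ptac3 than in Col0 in every library, without passing the adjusted test. The accD window had a relative depth of 0.592, 0.623 and 0.836 in ptac3 input libraries, against 0.420, 0.455 and 0.499 in Col0 input libraries. The libraries did not overlap, which held with ptac3 higher for 17.1% of the flanks. The log2 difference was 0.50 (limma, SE 0.12, unadjusted p = 0.00113, adjusted p = 0.207), and 215 of the 222 flanks had a lower one, while limma called 0% of genes and of flanks in input. With 1 library left out at a time this difference ran from 0.36 to 0.59, and its adjusted p (limma) from 0.0133 to 0.732. The lowest adjusted p came without ptac3 input library 1, at 0.59, where 30.2% of flanks were called. The IPOD libraries had 0.593, 0.679 and 0.710 there in ptac3, against 0.452, 0.407 and 0.465 in Col0. The genes themselves had input differences of 0.14 for accD (limma, adjusted p = 0.536) and 0.064 for clpP (adjusted p = 0.632), and the clpP window 0.17 (adjusted p = 0.355). In bins limma called 0% of the genome in this contrast, and 26 of the 82 bins of accD, clpP and their windows passed an unadjusted p under 0.05, against 18.9% of all bins. Without ptac3 input library 1, 25 of the 82 bins were called, against 19.9% of all bins.

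Against all 112 genes, accD stood low in the leaf and clpP nearer the middle. In leaf 12 genes had a lower ratio than accD and 31 a lower ratio than clpP. In ptac3 the counts were 28 and 71, and in Col0 25 and 29. The median of all genes was −0.063 in leaf, 0.031 in ptac3 and −0.046 in Col0, while that of protein-coding genes was −0.15, 0.054 and −0.095, which lay above accD and clpP in leaf and Col0. Transfer RNA genes had medians of 0.44 in leaf, −0.059 in ptac3 and 0.23 in Col0.

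Other genes known as targets of the nuclear-encoded polymerase lay on the same side of input as accD in leaf and Col0, as did most protein-coding genes. Of all 79 protein-coding genes, 63 lay below 0 in leaf and 66 in Col0. rpoB, rpoC1 and rpoC2, which encode subunits of the plastid-encoded polymerase, and ycf1 (the longer of its 2 entries) and ycf2 all had leaf ratios below 0, with a median of −0.26 and a range from −0.32 in ycf1 to −0.25 in ycf2. The shorter ycf1 entry had −0.18 in leaf, 0.026 in ptac3 and −0.20 in Col0. rpoB, rpoC1 and rpoC2 lie side by side on the map, and all 5 genes were picked with earlier results of these data known. In ptac3 their median was 0.0064, and −0.040 with libraries centred on their median. In Col0 all 5 were below 0, with a median of −0.20, and 1 fell past the threshold, ycf2, at −0.24 (limma, adjusted p = 0.0296). The difference between ptac3 and Col0 had a median of 0.21 over the 5, from 0.17 in rpoB to 0.23 in ycf2, and none was called. Over all protein-coding genes that median was 0.15.

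Of 8 photosynthesis genes, 7 lay above 0 in leaf, with a median of 0.13 and a range from −0.067 in psbB to 0.73 in psbA, which encodes the D1 protein of photosystem II (limma, adjusted p = 0.243). In ptac3 the median was 0.042, turning to −0.0053 with centred libraries, and in Col0 it was −0.073, with psbA at 0.15 in Col0. None of the 8 was called in any comparison. The 8 were picked with earlier results known, and of the 25 other genes of the photosystems, the cytochrome complex and the ATP synthase 19 lay below 0 in leaf, with a median of −0.12. Among 21 ribosomal protein genes 19 were below 0 in leaf, with a median of −0.19, and the lowest was rps15 at −0.39. In ptac3 their median was 0.051, and in Col0 it was −0.095, with 1 gene called lower, rpl2, at −0.22 (limma, adjusted p = 0.0324). The map neighbours of accD and clpP, rbcL, psaI, ycf4, psbB, rpl20 and rps12, had a leaf median of −0.076, which centring turned to 0.035, with psaI at −0.30 and rbcL, the large subunit of Rubisco, at 0.18. Their medians were 0.014 in ptac3, or −0.033 after centring, and −0.083 in Col0, and none was called.

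**Figure D4:**
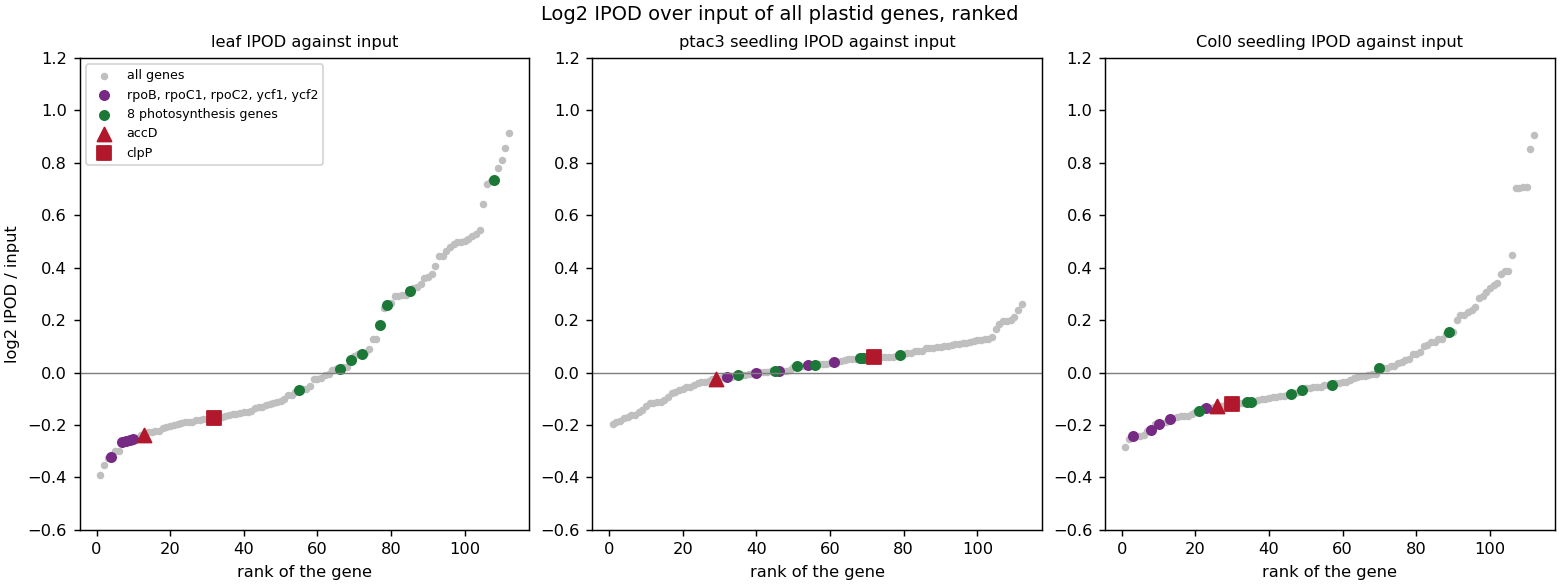
All 112 plastid genes ranked by log2 IPOD over input (y axis) in leaf, ptac3 and Col0, with accD as a triangle, clpP as a square, the genes rpoB, rpoC1, rpoC2, ycf1 and ycf2 in purple and 8 photosynthesis genes in green. accD has 12 genes below it in leaf, and ptac3 ratios span a narrower range than leaf or Col0 ratios.

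As a description over the 10 pairs of libraries, the ratio of accD followed those of rpoC2 (Pearson r = 0.912), ycf1 (0.909) and rpoB (0.905) most closely. That of clpP followed ndhD (0.960), rps4 (0.945) and petB (0.935). ndhD encodes a subunit of the NDH complex, rps4 a ribosomal protein and petB cytochrome b6. accD and clpP followed each other less closely, with r = 0.708, at rank 28 among the genes of either. The median over all other genes was 0.253 for accD and 0.430 for clpP, and all of these values share the same libraries and their scaling. They also pool leaf, ptac3 and Col0, so differences between these conditions enter them as well as differences between libraries. The Col0 numbers among them were not read as pairs. Along the sequence, the leaf and Col0 profiles had r = 0.36 for accD over 36 bins and 0.45 for clpP over 46 bins. The leaf and ptac3 profiles had 0.28 and −0.15, and the ptac3 and Col0 profiles 0.36 and 0.38. Between leaf pairs the profiles ranged from −0.43 to 0.88 for accD and from −0.56 to 0.91 for clpP. Between ptac3 pairs the profiles of accD were hardly alike (r from 0.052 to 0.098).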

How the data were processed

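The authors deposited coverage signal, the whole number of reads over each of 154477 plastid positions, with 1 column per library, unscaled, on TAIR10 per the file headers. Bowtie2, Trim Galore 0.4.1 and bedtools 2.25.0 are named in the submitters' processing notes, and filters and the placement of reads in repeats are not given in the sources used here. A read covers many neighbouring bases, so no count model was used.

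Depth was averaged over each gene, flank or 50 bp bin, divided by the library mean without the second inverted repeat copy, raised by 10% of the median bin and taken to log2, which understates changes at low depth. limma 3.58.1 in R 4.3.3 was fitted over all 112 genes of at least 70 bp, all 222 flanks or all 2564 bins, leaf libraries apart and the 12 seedling libraries together, with Benjamini-Hochberg adjustment and a threshold of 0.05. The scripts were tested on simulated data. In a bin, counting noise alone had an SD (log2) between 0.019 and 0.208, and no 2 libraries held identical values. Gene positions came from the RefSeq table, in which 5 of 5 genes of the inverted repeat have mirrored positions that match the mirrored depth in 20 of 20 libraries. Flanks on either side of every gene stood in for upstream windows, since strands were not given.

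Same-numbered libraries deviated together in leaf (r = 0.626 to 0.916) and in ptac3 numbers 1 (0.771) and 3 (0.750). Number 2 of ptac3 (0.228) lay within the range of Col0 (0.023 to 0.257). Leaf and ptac3 numbers were read as pairs and Col0 numbers were not, without a set cut-off. Named genes were accD and clpP, the lowest and highest bins, the 3 genes most like each and the lowest, highest and called members of 4 lists. The members and lists were chosen with earlier results of these data known.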

Additional observations from a re-analysis of the deposited data

Results flagged for a closer look

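Of 14 sets of 4 leaf values, 3 held a library far from the others. Chance flags about 1 set in 20, but the 14 sets share the same leaf libraries, so no excess over chance can be read from this count. accD stood at 0.556 times the library mean in leaf IPOD library 2, against 0.844 to 0.879 in the other leaf IPOD libraries. clpP stood at 0.749 in the same library, against 0.910 to 0.929 in the others. Leaf IPOD library 2 was also the shallowest, at 54.5 reads per base. Upstream of clpP, leaf IPOD library 4 stood at 0.775, against 1.49 to 1.63 in the others. The part of depth in these values was not tested.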

How the results depend on the processing

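Of 812 values under other settings, 743 were labelled the same as in the main fit. For a ratio this means that direction and side of the threshold were kept. For a count of called bins it means an equal or near number. Nearly all of the ratios were not called in the main fit. The cause of the changes in the other values was not tested, except that fewer libraries enter where some are left out. Values are log2 ratios unless called bins, and bins are the 82 of accD, clpP and their windows, with the share of all bins called in brackets. With libraries centred on their median, the accD window turned to 0.060 in leaf and to −0.047 between ptac3 and Col0, with and without the replicate block. Centring called 1 bin in Col0 (3.74%), and 13 in Col0 (20.9%) and 1 between the genotypes (9.91%) when joined with the block. limma-trend with robust variances called 3 bins in Col0 (11.1%) and 1 between the genotypes (1.79%). Fitting the genotypes apart called 7 bins in Col0 (15%). The replicate block called 1 bin in leaf (6.44%), 14 in Col0 (25.1%) and 3 between the genotypes (7.25%). The Col0 numbers were not read as pairs. The block gave accD after its end 0.33 between the genotypes (limma, adjusted p = 0.0323, with 16.7% of flanks called) and changed no other call at either gene or its flanks.

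Leaf libraries 1 and 3 alone gave −0.28 for accD, 0.064 for its window, 0.34 for window minus gene, −0.17 for clpP, 0.40 for its window, 0.57 for window minus gene, and 42 called bins (63.7%). The block without leaf pair 4 gave −0.28 for accD, 0.062 for its window, −0.20 for clpP, 0.52 for its window and 0.72 for window minus gene, with 22 called bins (32.9%), and without leaf pair 2 it called 9 bins (12.8%). These blocks with a pair left out, the 2 joint settings, the downstream windows and the library mean over both repeat copies were chosen after seeing the data. Over 150 bp, accD window minus gene turned to 0.00030 in ptac3, −0.064 in Col0 and 0.065 between the genotypes, the clpP window to −0.052 in Col0, and the stretch after clpP to 0.041 between the genotypes. That last value was 0.019 with the mean over both repeat copies.

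Leaving out 1 library at a time gave these ranges. In leaf accD ran from −0.37 to −0.086, its window from −0.26 to 0.12, clpP from −0.22 to −0.099, its window from 0.24 to 0.56 and clpP window minus gene from 0.38 to 0.76. In ptac3 accD ran from −0.092 to 0.069, its window from −0.12 to 0.11, window minus gene from −0.044 to 0.076, clpP from −0.00141 to 0.091, its window from −0.17 to 0.022, and the stretch after accD from −0.092 to 0.029. Between ptac3 and Col0 accD ran from 0.035 to 0.20, the clpP window from −0.25 to −0.053, the accD window from −0.064 to 0.17, window minus gene from −0.13 to 0.00463, and the stretch after clpP from −0.089 to 0.075. Called bins ran from 0 to 1 in Col0 and from 0 to 25 in input, each highest without ptac3 input library 1 (5.62% and 19.9%). Counting noise limits single bins in the shallowest libraries. Exons and promoter sequences were not used here, so clpP was not tested without its introns and no motifs were counted.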
